A study of Rattus norvegicus and Mus musculus with 17 samples.

Results

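The serpins are a family of protease inhibitors, and the genes described here are all those whose symbol begins with Serpin in the 3 deposited tables of a liver tumour and liver regeneration study. They make up 42 of 15824 table entries and 30 of 11532 distinct gene symbols. The table of the chemically induced mouse model lists 21 of them among 4649 genes, that of the transplanted rat hepatoma 17 among 9082, and that of regenerating rat liver 4 among 2093. Each table was limited by the authors to p-values under 0.05, so serpins outside the tables are not analysed here. That limit also favours genes whose compared groups do not overlap. None of the 21, 17 and 4 listed serpins overlapped between the compared groups. Separate groups are therefore given below as description and are no further support. The share of all listed genes without overlap was not counted.

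RNA was sequenced from livers and tumours of male animals. C57BL/6 mice received 50 mg/kg diethylnitrosamine (DEN), a liver carcinogen, at 14 days of age, and 2 mg/kg TCPOBOP, an agonist of the nuclear receptor CAR, 30 days later. Both mouse groups carried this treatment, and they differed in age. The group before tumours was 5 months old (n = 3) and the group with tumours 8 months old (n = 3). The Morris hepatoma group (n = 4) consists of tumours grown for 2 weeks from MH3924a cells, a single transplantable line, injected into the liver of ACI rats of 10 weeks. Regenerating liver came from rats of 10 to 12 weeks, 24 hours after partial hepatectomy (n = 4). Untreated ACI liver (n = 3) was the control of both rat groups, so these comparisons share their control libraries. Nothing in the labels ties each library to a separate animal, so the p-values reflect library-to-library spread, which may be technical. The mouse groups differ in age as well as tumours, and these cannot be told apart.

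A serpin presents a flexible reactive-centre loop to its target protease. Cleavage of the loop traps the protease in a covalent complex, which is then cleared. Hepatocytes secrete many serpins into plasma, where they restrain neutrophil elastase, thrombin, plasmin and complement proteases, while the clade B serpins stay mainly inside cells and some relatives carry hormones or chaperone collagen without inhibiting any protease.

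The loop differs between gene copies that the mouse results turn on. The antitrypsin gene is duplicated in the mouse, and the 4 listed copies are shown around the reactive site, with the codon of the residue before the cleaved bond in capitals (coding sequence of GENCODE M21 transcripts, chromosome 12).
Serpina1a: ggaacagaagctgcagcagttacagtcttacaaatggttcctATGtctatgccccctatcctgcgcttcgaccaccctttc
Serpina1b: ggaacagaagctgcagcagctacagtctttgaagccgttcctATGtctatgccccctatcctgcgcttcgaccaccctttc
Serpina1c: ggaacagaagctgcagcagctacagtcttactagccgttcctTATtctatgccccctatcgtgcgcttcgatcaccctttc
Serpina1d: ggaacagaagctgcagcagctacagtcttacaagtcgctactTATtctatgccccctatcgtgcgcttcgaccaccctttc

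Serpina1a and Serpina1b hold ATG at this codon, which encodes methionine, and Serpina1c and Serpina1d hold TAT, which encodes tyrosine. Over the whole coding sequence the copies are nearly alike, with 96.5% to 98.5% identity over 1239 coding bases and identical runs of 393 to 728 bases. The authors' counting could have split reads between them, so each copy's level is uncertain.

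The antichymotrypsin type genes, also multiplied in rodents, are shown for the 3 tested members, with the part of the loop that varies between them in capitals (same source, chromosome 12).
Serpina3k: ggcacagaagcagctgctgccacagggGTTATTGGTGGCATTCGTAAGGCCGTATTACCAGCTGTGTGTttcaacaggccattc
Serpina3m: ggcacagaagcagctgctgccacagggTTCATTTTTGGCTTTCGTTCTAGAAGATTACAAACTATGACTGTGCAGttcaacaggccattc
Serpina3n: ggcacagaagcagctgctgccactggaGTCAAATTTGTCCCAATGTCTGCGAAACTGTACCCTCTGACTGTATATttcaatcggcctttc

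Serpina3k and Serpina3m shared 91.99% of aligned coding bases, with a longest identical run of 154 bases. Serpina3n was 83.49% and 85.17% identical to them, with runs of 39 and 65 bases.

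The first comparison asked which serpins differed between DEN livers with tumours and before tumours. The family split, with 7 of 19 tested members higher, 7 lower and 5 that did not pass an adjusted p of 0.05 in limma. Thyroxine-binding globulin, vaspin, Serpinb6a, Serpina3n and antiplasmin rose, while Serpina3k, protease nexin 1, the PEDF gene and the antitrypsin copies Serpina1c and Serpina1d fell. Among all 3684 genes tested, 17.9% were called higher and 49.5% lower. The median log2 fold change was 0.39 over the tested serpins and -0.56 over all tested genes. With library medians set equal, 9 serpins were higher and 3 lower, and quantile normalization gave 9 and 3 as well, so the split depends on the scaling. The values behind these folds are RPKM, tested as log2 of RPKM + 1, which compresses the changes of low genes.

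**Figure D1:**
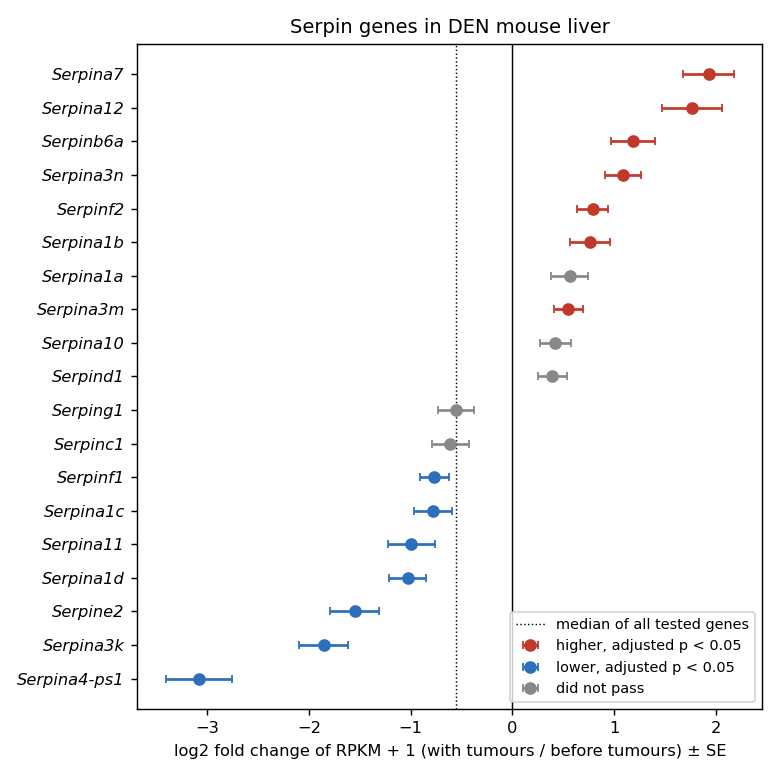
Log2 fold change of RPKM + 1 (± SE) for the 19 tested serpin genes in DEN mouse liver with tumours (n = 3) against before tumours (n = 3). Points run from -3.08 for Serpina4-ps1 to 1.93 for Serpina7, with 7 called higher, 7 lower and 5 not called, and the dotted line marks the median of all tested genes at -0.56.

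Of the hormone carriers, Serpina7, which encodes thyroxine-binding globulin, had 9.77, 12.2 and 11.4 RPKM before tumours and 40.0, 68.4 and 33.2 with tumours. Each library with tumours lay above each library before them. The log2 fold change was 1.93 ± 0.25 (adjusted p = 0.0025), the largest rise among the listed serpins.

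Vaspin, a serpin first described in adipose tissue and encoded by Serpina12, had 50.1, 82.3 and 55.8 RPKM before tumours and 289, 138 and 234 with tumours. Library 2 was the lowest with tumours and the highest before them, and the groups did not overlap. The log2 fold change was 1.76 ± 0.30 (adjusted p = 0.0075).

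The antitrypsin copies moved in opposite directions. Serpina1b had 8777, 9632 and 7483 RPKM before tumours and 17264, 11597 and 15336 with tumours (log2 fold change 0.76 ± 0.20, adjusted p = 0.041). Serpina1a had 2643, 3168 and 2642 RPKM before and 3610 to 5086 with tumours, and did not pass (0.56 ± 0.18, adjusted p = 0.099). The copies with the tyrosine codon were lower. Serpina1c had 5537, 6511 and 5111 RPKM before tumours and 4020, 3291 and 2745 with tumours (-0.78 ± 0.19, adjusted p = 0.032). Serpina1d had 4517, 4348 and 3962 RPKM before and 2522, 2148 and 1683 with tumours (-1.03 ± 0.19, adjusted p = 0.0086).

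None of the 4 copies overlapped between the groups, and neither did any other serpin listed in the mouse. The calls of Serpina1b and Serpina1c were lost when any of 5 of the 6 libraries was left out (adjusted p up to 0.16 and 0.14), and that of Serpina1d without library 1 before tumours (adjusted p = 0.050). The falls of Serpina1c and Serpina1d did not pass under median scaling (adjusted p = 1.0 and 0.22) or quantile normalization (both 1.0). Quantile normalization left Serpina1b at 0.52 with adjusted p = 0.54, and gave Serpina1a 1.39 with adjusted p = 0.0017. The share of the copies within a library does not change when a library is multiplied by a common factor, as in median scaling. Quantile normalization can change it, and the shares were taken only on the values as deposited. Serpina1c and Serpina1d together held 46.8%, 45.9% and 47.3% of the RPKM summed over the 4 copies before tumours, and 22.6%, 26.3% and 18.7% with tumours. The sum over the 4 copies was 21443 ± 2231 RPKM (SD, n = 3) before and 24400 ± 4173 with tumours, and these ranges overlapped. Within a library the ratio of Serpina1b to Serpina1d was 1.89 to 2.22 before tumours and 5.40 to 9.11 with tumours.

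**Figure D2:**
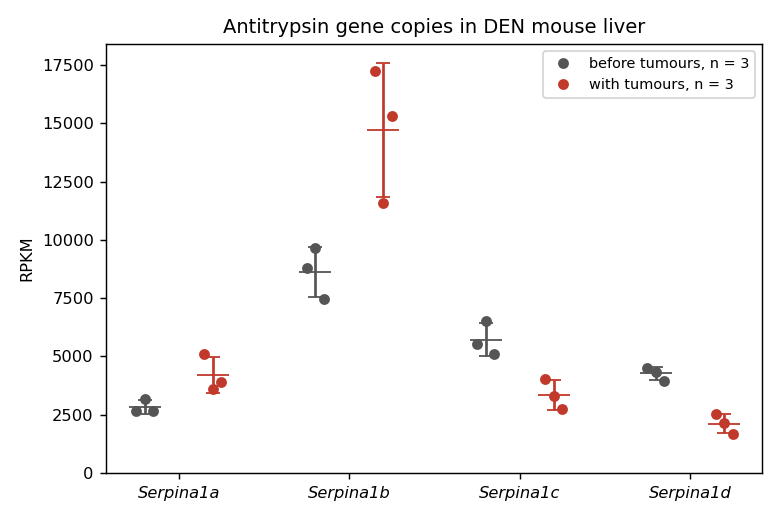
RPKM of the 4 listed antitrypsin copies in each DEN mouse library (points), with mean and SD (bars), before tumours (n = 3) and with tumours (n = 3). Serpina1a and Serpina1b are higher and Serpina1c and Serpina1d lower in every library with tumours, and reads of these near-identical copies may have been split.

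The antichymotrypsin type showed a like divergence. Serpina3k, the most abundant of them, had 6488, 7177 and 7293 RPKM before tumours and 1833, 2781 and 1402 with tumours (log2 fold change -1.86 ± 0.24, adjusted p = 0.0022). Serpina3n, an inhibitor of granzyme B in the mouse, had 157, 160 and 130 RPKM before and 266, 319 and 372 with tumours (1.09 ± 0.17, adjusted p = 0.0052). Every library with tumours was below the others for Serpina3k and above them for Serpina3n. Serpina3m rose from 121, 105 and 121 to 168, 181 and 159 RPKM (0.55 ± 0.14, adjusted p = 0.041), a call lost without any 1 of the 6 libraries (up to 0.19). Serpina3k made up 95.9%, 96.4% and 96.7% of the RPKM summed over the 3 genes before tumours, and 80.8%, 84.8% and 72.6% with tumours. The pseudogene Serpina3h stayed below the filter of 1 RPKM, at 0.0926 to 0.256 before and 0.0240 to 0.0561 with tumours, and was not tested.

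The antichymotrypsin and antitrypsin copies lie with other Serpina genes on mouse chromosome 12, which holds 13 of the 21 listed members. Of the 11 tested there, 4 were called higher, 5 lower and 2 not called. Among all tested genes 17.9% were called higher and 49.5% lower. Calls on this chromosome went both ways, and their number depends on the scaling. The largest fall of the family was at Serpina4-ps1, annotated as a pseudogene, with 26.5, 24.7 and 17.1 RPKM before tumours and 0.650, 2.66 and 2.51 with tumours (-3.08 ± 0.32, adjusted p = 0.0014). Serpina11, whose function is poorly known, had 72.6, 70.8 and 58.3 RPKM before and 23.3, 44.6 and 34.9 with tumours (-0.99 ± 0.23, adjusted p = 0.025). This call was lost when any of 4 of the 6 libraries was left out (up to 0.12), under median scaling (0.16) and under quantile normalization (1.0). Serpina10, the inhibitor of coagulation factor Xa that uses protein Z, had 120, 113 and 113 RPKM before and 175, 158 and 133 with tumours, and did not pass (0.42 ± 0.15, adjusted p = 0.15), but did under median scaling (0.025) and quantile normalization (0.0026). Serpina9 was below the filter, at 0.392 to 0.441 RPKM before and 0.0580 to 0.252 with tumours.

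The thrombin inhibitors Serpinc1 and Serpind1 did not pass on the values as deposited. Serpinc1, antithrombin, had 1202, 1288 and 1322 RPKM before tumours and 857, 998 and 669 with tumours (-0.61 ± 0.18, adjusted p = 0.069). Serpind1, heparin cofactor II, had 302, 268 and 258 RPKM before and 364, 356 and 364 with tumours (0.39 ± 0.14, adjusted p = 0.15). The groups did not overlap at either gene. Without library 2 with tumours antithrombin passed (adjusted p = 0.035), and under quantile normalization its direction turned (0.52). Serpind1 passed as higher under median scaling (0.79, adjusted p = 0.017) and quantile normalization (1.13, adjusted p = 0.0027).

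The fibrinolysis inhibitors differed from each other. Serpinf2, antiplasmin, had 428, 432 and 362 RPKM before tumours and 708, 680 and 717 with tumours (0.79 ± 0.15, adjusted p = 0.010). Serpine2, protease nexin 1, which inhibits thrombin and plasminogen activators, had 6.82, 6.89 and 5.90 RPKM before and 0.823, 2.72 and 1.49 with tumours (-1.55 ± 0.24, adjusted p = 0.0051). Both groups were separate at both genes, in opposite order. Serpinf1, which encodes the non-inhibitory PEDF, had 536, 542 and 564 RPKM before and 317, 302 and 345 with tumours (-0.77 ± 0.14, adjusted p = 0.0093). Its call was lost under median scaling (adjusted p = 0.53), and quantile normalization gave 0.014. Serping1, the C1 inhibitor of complement and the kallikrein system, had 619, 552 and 538 RPKM before and 319, 393 and 463 with tumours, without passing (-0.55 ± 0.18, adjusted p = 0.094; 0.31 under quantile normalization).

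Serpinb6a, an intracellular inhibitor of cathepsin G, was the 1 clade B member listed in the mouse. It had 21.9, 13.2 and 14.8 RPKM before tumours and 30.8, 39.8 and 46.0 with tumours (1.19 ± 0.22, adjusted p = 0.0090). All libraries with tumours lay above all libraries before them.

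Counts of related genes stand against 17.9% called higher and 49.5% lower among all tested genes. Of 11 listed target proteases, 4 were higher and 4 lower, with a median log2 fold change of -0.46, close to the -0.56 of all tested genes. The neutrophil protease gene Prtn3 (0.765 ± 0.281 to 4.13 ± 1.76 RPKM, log2 fold change 1.49 ± 0.25) and F11, coagulation factor XI (23.6 ± 5.30 to 51.2 ± 6.89), rose. Klkb1, plasma kallikrein and a target of the C1 inhibitor, fell from 63.1 ± 2.88 to 25.8 ± 9.93 RPKM (-1.31 ± 0.23). Of 5 tested cofactor and clearance genes, Anxa2, which binds plasminogen on cells, rose from 23.7 ± 7.35 to 105.7 ± 32.5 RPKM. The urokinase receptor gene Plaur rose from 0.562 ± 0.241 to 3.15 ± 0.982 RPKM, and Lrp1, the receptor that clears serpin complexes, fell from 25.3 ± 4.54 to 13.2 ± 0.944. Acute phase genes split 3 higher and 3 lower of 8, with Apcs higher (1.67 ± 0.21) and Orm3 lower (-4.52 ± 0.53). All 5 listed genes of the growth hormone and STAT5 axis fell, among them the receptor gene Ghr (95.3 ± 3.70 to 22.98 ± 11.5 RPKM, -2.12 ± 0.31) and Igfals (-2.14 ± 0.47). Of 5 listed collagens and collagen modifying enzymes, the collagens Col4a1 (1.53 ± 0.19) and Col4a2 (1.47 ± 0.15) rose and the enzyme gene P4ha2 fell. Serpinh1, the collagen chaperone, was not listed.

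Other cell types moved with these groups. The summed RPKM of the 6 listed hepatocyte markers of 11 was 41333 to 54828 before tumours and 131193 to 145941 with tumours. Alb, Apoa1 and Trf were called higher and Hpd and Fah lower, and Cps1 had a lower mean without passing (-1.24). The sum rests mainly on Alb (means 24699 and 83080 RPKM) and Apoa1 (16872 and 41840). The 5 listed endothelial markers of 8 summed to 15.7 to 21.2 RPKM before and 25.4 to 44.8 with tumours. Of them 4 were called higher, where 17.9% of all tested genes were, and Tek had a lower mean without passing (-0.52). The 4 listed macrophage markers of 10 summed to 75.3 to 96.4 and 82.1 to 105.6 RPKM, with Cd68 (0.45) and Lyz2 (0.83) called higher and Clec4f, of Kupffer cells, lower (-1.97). Cd163 fell from 1.22 ± 0.283 to 0.381 ± 0.197 RPKM and was not tested. Sox9, the 1 listed cholangiocyte marker of 5, was called higher (1.26). The 2 listed stellate cell markers of 10 summed to 4.53 to 7.20 RPKM before and 13.4 to 22.2 with tumours. Of them Acta2 was called higher (1.70), and Reln did not pass (0.37). The part of these cells in the serpin changes was not tested. In bulk tissue, fewer cells of a type and less RNA per cell cannot be told apart.

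The second comparison asked which serpins differed between the Morris hepatoma and untreated rat liver. Of 15 tested members 6 were called higher, 1 lower, and 8 did not pass. Those called higher were 4 intracellular clade B genes, the collagen chaperone gene Serpinh1 and Serpine2, and the 1 called lower was Serpinf1. The 8 that did not pass encode secreted proteins, had lower means in the tumours, and differed widely between the 4 tumour libraries. Among all 8233 tested genes 85.5% were called higher and 8.73% lower, so rises were the rule in this table. The median log2 fold change was -3.08 over the tested serpins and 1.58 over all tested genes. With library medians set equal, 4 serpins were higher and 5 lower, and with quantile normalization 4 and 1.

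**Figure D3:**
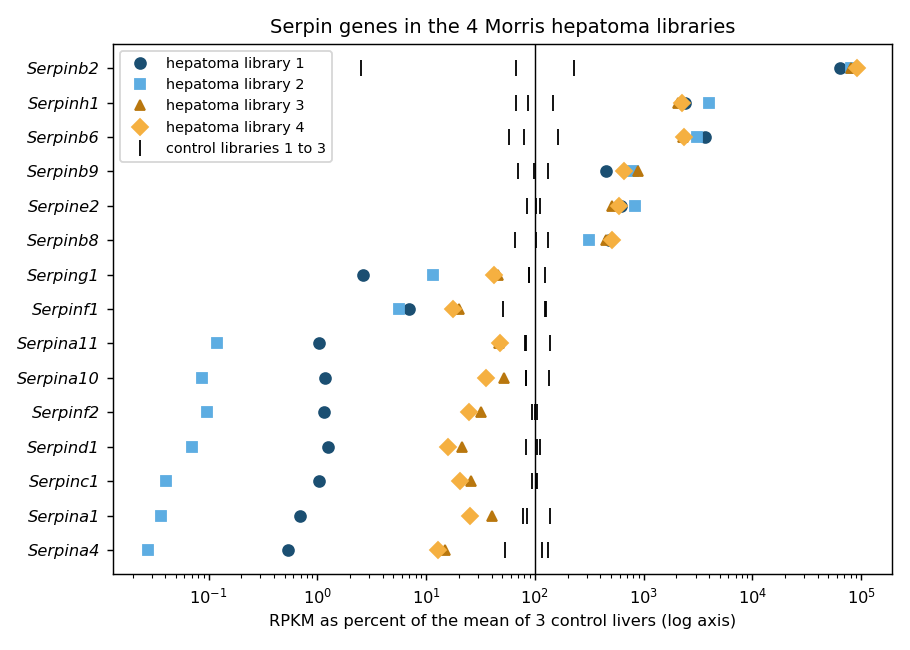
RPKM of the 15 tested serpin genes in each of the 4 Morris hepatoma libraries (coloured points) and the 3 control libraries (bars), as percent of the control mean on a log axis. Members called higher sit close together over the hepatoma libraries, while Serpina4, for instance, sits at 0.541% and 0.0279% in libraries 1 and 2 and at 15.04% and 12.9% in libraries 3 and 4.

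All 4 tested clade B genes were called higher, in a table where 85.5% of all tested genes were. Serpinb2, which encodes PAI-2, an inhibitor of urokinase, had 0.0916, 0.001 and 0.0268 RPKM in control liver, where 0.001 stands for no reads, and 25.5, 32.2, 32.3 and 36.5 in the hepatoma. Control liver was close to 0 and all tumour libraries were alike. The log2 fold change of RPKM + 1 was 4.96 ± 0.17 (adjusted p = 1.8e-07), the largest rise of the family. Serpinb6 had 1.99, 1.44 and 4.07 RPKM in control and 91.1, 78.1, 57.9 and 59.4 in hepatoma (4.42 ± 0.27, adjusted p = 1.3e-06).

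Serpinb9, an inhibitor of granzyme B, had 4.45, 3.21 and 6.08 RPKM in control liver and 20.6, 36.9, 41.01 and 29.9 in hepatoma (2.56 ± 0.26, adjusted p = 2.6e-05). Serpinb8, an inhibitor of furin in humans, had 0.391, 0.612 and 0.791 RPKM in control and 2.89, 1.89, 2.71 and 3.04 in hepatoma (1.18 ± 0.17, adjusted p = 0.00024). The groups were separate at both genes. Under median scaling neither passed (adjusted p = 0.12 and 1.0), and under quantile normalization Serpinb9 had 0.93 (adjusted p = 0.058) and Serpinb8 turned to -0.31. Serpinb7 was below the filter, at 0.001 to 0.0253 RPKM in control and 0.102 to 0.191 in hepatoma.

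Serpinh1, which encodes the collagen chaperone HSP47, had 7.56, 5.91 and 12.9 RPKM in control liver and 211, 348, 183 and 198 in hepatoma. Every tumour library was far above the highest control. The log2 fold change was 4.61 ± 0.30 (adjusted p = 1.7e-06), and 2.73 under median scaling and 3.34 under quantile normalization. HSP47 is a heat shock protein, and its promoter is shown with a heat shock element in capitals (RefSeq GRCr8, chr1:163062977-163063071, minus strand).
Serpinh1: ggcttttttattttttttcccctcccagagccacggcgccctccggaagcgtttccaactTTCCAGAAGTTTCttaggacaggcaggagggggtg

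The motif TTCNNGAANNTTC, searched on both strands in the 250 bases before the annotated start, ends 22 bases before it. It occurs in 182 of 27457 rat promoters (0.663%), in 1 of the 6 serpins with a higher mean in hepatoma that had a promoter sequence, and in 0 of 7 with a lower mean. The motif GTTAAT, part of the site of the hepatocyte factor HNF1, occurs in 7.13% of all promoters, in 0 of the 6 and in 1 of the 7, Serpina4. A match describes the sequence and does not show binding.

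Serpine2, protease nexin 1, had 7.42, 5.64 and 6.86 RPKM in control liver and 41.3, 55.3, 34.1 and 39.7 in hepatoma (2.50 ± 0.20, adjusted p = 5.1e-06). The control libraries were close together and below every tumour library. Under median scaling the log2 fold change was 0.66 (adjusted p = 0.036). Over the 6 higher members the highest tumour library was 1.43 to 1.99 times the lowest.

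The secreted serpins with lower means in the tumours showed another pattern. Serpina1, antitrypsin, had 12629, 11690 and 20517 RPKM in control liver and 104, 5.40, 6078 and 3786 in hepatoma (log2 fold change -5.36 ± 2.63, adjusted p = 0.26). Serpinc1, antithrombin, had 2398, 2446 and 2225 RPKM in control and 24.4, 0.963, 603 and 479 in hepatoma (-5.26 ± 2.20, adjusted p = 0.16). The tumour libraries lay below every control library, but they spread widely among themselves, from near absence in library 2 to a sizeable part of the control level in library 3, and neither gene passed.

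Serpina4, kallistatin, had 993, 869 and 405 RPKM in control liver and 4.09, 0.211, 114 and 97.3 in hepatoma (-5.44 ± 1.85, adjusted p = 0.083). Serpind1, heparin cofactor II, had 411, 441 and 328 RPKM in control and 4.89, 0.274, 83.4 and 62.6 in hepatoma (-4.79 ± 1.63, adjusted p = 0.083). Both were lowest in tumour library 2. Both passed without tumour library 2 (adjusted p = 0.047 and 0.036) or library 3 (0.0496 and 0.045).

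Serpinf2, antiplasmin, had 740, 715 and 664 RPKM in control and 8.20, 0.684, 227 and 175 in hepatoma (-4.66 ± 1.93, adjusted p = 0.16). Serpina10 had 161, 159 and 259 RPKM in control and 2.28, 0.168, 100.5 and 67.96 in hepatoma (-3.88 ± 1.81, adjusted p = 0.22). Serpina11 had 140, 136 and 230 RPKM in control and 1.74, 0.201, 78.5 and 81.2 in hepatoma (-3.76 ± 1.81, adjusted p = 0.24). In each, tumour libraries 1 and 2 were far below libraries 3 and 4, and all 4 were below every control.

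Over these 7 genes, tumour library 1 held 0.541% to 1.24% of the control mean and library 2 0.0279% to 0.119%. Libraries 3 and 4 held 15.04% to 52.04% and 12.9% to 48.1%. The low-expressed Serpina5, the protein C inhibitor, was listed as no reads in libraries 1 and 2 and at 0.293 and 0.240 RPKM in libraries 3 and 4, against 0.750 to 1.30 in control.

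Serpinf1 and Serping1 were less low in libraries 1 and 2. Serpinf1, PEDF, had 1036, 1053 and 428 RPKM in control and 58.8, 47.2, 168 and 147 in hepatoma. It was the 1 member called lower (-3.08 ± 0.55, adjusted p = 0.0026). Serping1, the C1 inhibitor, had 922, 906 and 1279 RPKM in control and 27.1, 119, 476 and 440 in hepatoma (-2.65 ± 1.07, adjusted p = 0.14), and passed without tumour library 1 (0.0496). In libraries 1 and 2 Serpinf1 held 7.01% and 5.62% of the control mean, and Serping1 2.62% and 11.5%.

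Hepatocyte markers moved with the secreted serpins that had lower means in the tumours. The 10 listed markers of 11 summed to 80242 to 106479 RPKM in control liver, and tumour libraries 1 to 4 held 1.09%, 0.110%, 23.1% and 20.05% of the control mean. Alb had 574, 19.0, 10943 and 10924 RPKM in tumour libraries 1 to 4, against 48190 to 67213 in control, and Fah alone of the markers was called lower. Leaving out libraries 3 and 4, or libraries 1 and 2, gave 9 lower serpins and 6 higher of 15 in each case. These pairs of libraries were told apart by hepatocyte genes after the values were seen. Leaving out either pair removes the spread between the pairs. The counts are therefore a description and no support for lower serpins. The part of host liver in the tumour samples was not tested.

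Markers of other cells were mostly called higher, in a table where 85.5% of all tested genes were. The 7 listed stellate cell markers of 10 were all called higher, and summed to 20.2 to 84.6 RPKM in control and 471 to 1195 in hepatoma. The 3 listed endothelial markers of 8 rose from a sum of 6.48 to 11.6 to one of 45.5 to 74.7 RPKM, and of 4 listed macrophage markers of 10, 3 rose and Clec4f, of Kupffer cells, fell. Macrophage marker sums were 132 to 160 RPKM in control and 744 to 1353 in hepatoma. Gzma, the 1 listed T and NK cell marker of 8, was lower in hepatoma (log2 fold change -1.26 ± 0.27). Spp1, the 1 listed cholangiocyte marker of 5, was higher (6.84 ± 0.20). Their part in the higher serpins was not tested.

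Counts of related genes stand against the 85.5% of all tested genes called higher and 8.73% called lower in this table. All 14 listed collagens and collagen modifying enzymes rose, with a median log2 fold change of 3.47 against 1.58 over all tested genes, led by Col1a1 (1.65 ± 1.15 to 217 ± 95.4 RPKM, 6.37 ± 0.40) and Fkbp10 (5.15 ± 0.27). The urokinase gene Plau, a target of PAI-2 and protease nexin 1, rose from 4.67 ± 1.33 to 115 ± 35.9 RPKM, and Plat, tissue plasminogen activator, from 3.31 ± 2.04 to 98.3 ± 11.8. Of 10 tested cofactor and clearance genes 6 rose, led by Anxa2 (7.67 ± 5.63 to 2026 ± 409 RPKM) and Plaur (0.916 ± 0.859 to 406 ± 78.7), and Lrp1 fell. Of 17 target proteases 3 rose, these and Htra1, and 3 fell, among them Klkb1 (-4.23 ± 1.09) and Hgfac. The remaining 11 did not pass. The prothrombin gene F2 had 1059 to 1403 RPKM in control and 12.6, 0.504, 414 and 324 in hepatoma, and plasminogen, Plg, 879 to 1433 and 10.7, 0.298, 273 and 229. In both, libraries 1 and 2 were far below libraries 3 and 4, as at the secreted serpins with lower means.

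Of 6 acute phase genes, Socs3 rose (3.74 ± 0.75) and the other 5 did not pass. Of 9 genes of the growth hormone and STAT5 axis 5 rose, led by Igfbp3 (2.39 ± 0.30), and 4 fell, led by Ghr (-4.22 ± 1.02) and Igfals (-4.16 ± 0.99).

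The third comparison, of regenerating with control liver, listed 4 serpins, all of which are also in the hepatoma table, and 2 rose. Serpinh1 had 27.3, 25.8, 25.0 and 48.6 RPKM against 7.56, 5.91 and 12.9 in control (log2 fold change 1.75 ± 0.29, adjusted p = 0.029). Serpinb9 had 16.9, 17.0, 13.2 and 15.1 RPKM against 4.45, 3.21 and 6.08 (1.59 ± 0.18, adjusted p = 0.0064). Every regenerating library was above every control library at both genes, and library 4 stood apart at Serpinh1. Among all 1703 tested genes 21.2% were called higher, and the median log2 fold change was 1.28 over the 4 serpins and 0.53 over all tested genes.

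The other 2 members did not pass. Serpinb6 had 5.73, 7.65, 5.21 and 4.08 RPKM (0.97 ± 0.26, adjusted p = 0.12), its lowest library next to the highest control at 4.07, and passed without control library 3 (0.020). Serpinb8 had 1.01, 1.501, 1.26 and 2.31 RPKM (0.64 ± 0.18, adjusted p = 0.13). The call of Serpinh1 was lost without control library 1 or 2 or regenerating library 1 or 2 (up to 0.14). Neither call passed under median scaling (0.29 and 0.12 for Serpinh1 and Serpinb9) or quantile normalization (0.41 and 0.11).

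No secreted serpin was listed for the liver 24 hours after hepatectomy, and Tf, the 1 hepatocyte marker listed, did not pass (0.46). Of 6 listed collagens and collagen modifying enzymes, Col1a1 (1.65 ± 1.15 to 8.07 ± 2.46 RPKM, 1.84 ± 0.32) and Col6a2 (0.92 ± 0.16) were called higher. Among all tested genes 21.2% were. Over all genes, the 361 called higher became 37 under median scaling and 20 under quantile normalization. The 2 target proteases, 3 cofactor genes and 2 acute phase genes listed did not pass, and no gene of the growth hormone axis was listed. The 3 listed stellate cell markers of 10 summed to 17.4 to 46.3 RPKM in control and 55.1 to 73.6 in regenerating liver, and the 2 listed endothelial markers of 8 to 3.14 to 4.78 and 8.46 to 15.2. Their part in the 2 rises was not tested.

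**Figure D4:**
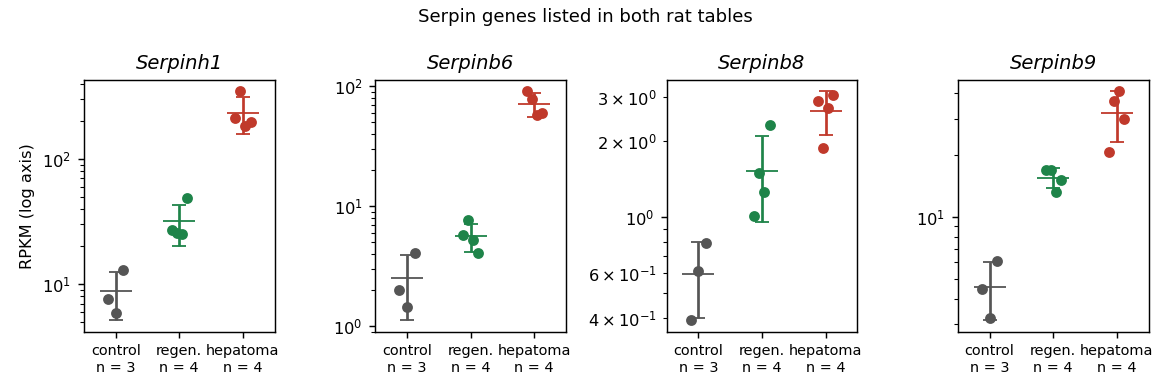
RPKM on log axes of the 4 serpin genes listed in both rat tables, in control (n = 3), regenerating (n = 4) and Morris hepatoma libraries (n = 4), with mean and SD. Serpinh1 and Serpinb6 reach 235 and 71.7 RPKM on average in hepatoma against 31.7 and 5.67 in regenerating liver.

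The tumour and the regenerating liver were then compared directly on the genes listed in both rat tables. Of the 4 serpins 3 were higher in hepatoma, where 80.8% of all 1673 tested genes were higher. Serpinb6 differed by 3.45 ± 0.19 on the log2 scale (adjusted p = 1.4e-08) and Serpinh1 by 2.86 ± 0.25 (adjusted p = 1.9e-06). Hepatoma libraries were above all regenerating libraries at both, and both differences passed under the 2 scalings, at 1.85 and 1.17 under median scaling. Serpinb9 differed by 0.96 ± 0.20 (adjusted p = 0.0042), which turned to -0.67 under median scaling and -0.54 under quantile normalization. Without hepatoma libraries 3 and 4, a split chosen after the values were seen, this difference did not pass (0.091). Serpinb8 differed by 0.54 ± 0.17 without passing (adjusted p = 0.11) and turned to -0.57 and -0.71 under these scalings.

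The mouse and the hepatoma table share no libraries, and 8 serpins are listed under the same symbol in both. In these 2 models the ratio of group means was 0.587 and 0.125 for Serpinf1, the gene called lower in both. Serpine2 was called in opposite directions, at 0.257 in DEN liver with tumours and 6.42 in hepatoma. Antiplasmin, Serpinf2, was called higher in the mouse at 1.72 and stood at 0.145 in the hepatoma without passing. Serpina11 was called lower in the mouse at 0.509 and stood at 0.240. The thrombin inhibitors Serpinc1 and Serpind1 stood at 0.662 and 1.31 in the mouse and at 0.118 and 0.0961 in the rat. Serpina10 stood at 1.35 and 0.221, and Serping1 at 0.688 and 0.256. These ratios are set side by side from different species and tables, and the difference between models was not tested.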

How the data were processed

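The 3 RNA sequencing tables hold one value per gene and library. The authors deposited values per library without naming the unit, which were read as RPKM, with 0.001 for no reads. The deposited tables also give a log2 ratio and a p-value, and list only genes with a p-value under 0.05. The aligner, counting, genome build and depth are not given in the sources used here, so no counting intervals are given.

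Log2(RPKM + 1) was tested in R 4.3.3 by limma 3.58.1, two-sided, with its trend and robust options, on the groups compared. A gene entered when the number of libraries reaching 1 RPKM was no less than the size of the smaller group. Benjamini-Hochberg adjustment counted all protein-coding genes, which are 21951 for the mouse (GENCODE M21) and 23154 for the rat (RefSeq GRCr8), at 0.05. In simulated data selected at p under 0.05 by a t-test, false calls exceeded this threshold, and the adjusted p-values may therefore be too small. Few genes were given a change in the simulation, so its rate does not carry over to these data. The size of the error here is unknown. Alternatives were a pseudocount of 0.1, filters, scalings, the replicate block, leaving out libraries, and all rat groups in 1 fit.

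Members and gene lists were chosen with earlier results of these data known. Values per library are given for members in several tables and the 8 largest called changes per comparison, and for genes of related lists the 2 largest called changes and those tied to a member by role. Members outside this rule were added after their values were seen. All 21 mouse and 17 rat gene IDs matched the annotation. Python 3.11.15 with pandas 2.3.3 did the remaining work.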

Additional observations from a re-analysis of the deposited data

Results flagged for a closer look

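Serpinh1 in regenerating library 4, at 48.6 RPKM, stood apart from libraries 1 to 3. Its gap to the nearest library was 0.905 of the range of the group. Of 21 groups of 4 libraries examined this was the 1 so marked, and chance marks about 1 in 20. Groups of 3 libraries, the rat controls among them, were not examined. Control library 3 lay away from libraries 1 and 2 at some genes, as at Serpinf1 (428 against 1036 and 1053 RPKM) and Serpina1 (20517 against 12629 and 11690). At others, such as Serpinc1 (2398, 2446 and 2225), the controls were close together.

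The effects of hepatoma and regeneration, taken against the same controls, differed by direct test for Serpinb6 (log2 difference 3.45), Serpinh1 (2.86) and Serpinb9 (0.96). The difference of Serpinb9 turned negative under the scalings given in the report.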

How the results depend on the processing

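Over the alternatives, the fold changes of single serpins kept direction and side of the threshold in 217 DEN, 224 hepatoma, 50 regenerating and 63 direct values, while 35, 4, 10 and 1 kept direction without the call, and 3 DEN, 1 hepatoma and 4 direct values turned. Of the lower DEN serpins (7), 3 remained called under median scaling and 3 under quantile normalization, where Serping1 (0.31), Serpinc1 (0.52) and Serpinf1 (0.014) turned; leaving out 1 library gave 4 to 7, and 5 to 6 higher. All DEN genes called higher and lower were 289 and 1072 with a filter of 5 RPKM, and lower 717 with median scaling and 599 with quantile normalization; without 1 library they were 385 to 607 and 906 to 1890.

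For Morris hepatoma against control, 1 serpin was called lower, and 2 without a filter, 5 with median scaling, 3 adjusted over tested genes, 3 without trend or robust settings, 0 with the replicate block and 0 with all 3 rat groups in 1 fit, which holds 4 of these serpins. Hepatoma libraries 1 and 2 only, or 3 and 4 only, gave 9 each, an alternative chosen after seeing the data; without 1 library 1 to 3. Serpinb8 turned to -0.31 under quantile normalization. All genes called higher were 2417 (median), 2606 (quantile) and 1551 (1 fit), and lower 2345, 1836 and 63, with 242 under the block and 343 to 841 without 1 library.

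For regenerating liver, higher serpins (2) were 0 under median scaling, 0 under quantile normalization, 4 adjusted over tested genes, 0 with the block and 1 to 3 without 1 library. All higher genes (361) were 149 with a filter of 5, 37 and 20 under the scalings, 1561 adjusted over tested genes, 23 with the block, 229 in 1 fit and 20 to 338 without 1 library; lower genes (13) were 22 without a filter, 4, 69, 41, 65, 2, 3 and 1 to 15.

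For hepatoma against regenerating liver, higher genes were 489 and 505 under the scalings and lower 485 and 437, with 103 for hepatoma libraries 1 and 2 only. Serpinb9 turned to -0.67 and -0.54, and Serpinb8 to -0.57 and -0.71 (adjusted p = 0.021). The scalings rest on genes selected as changed; the cause of these shifts was not tested.

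Replicate numbers share only a number: deviations of same-numbered DEN libraries correlated at -0.085, -0.16 and -0.022. With the replicate block 5 DEN serpins were higher and 6 lower. Depth is unknown and limits low genes.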
